A study of Homo sapiens with 4 samples.

Results

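The genes described here are the long intergenic non-coding RNA genes (LINC genes) that held reads in extracellular vesicles (EVs) of PC3 cells, a prostate cancer (PCa) cell line from a bone metastasis. A gene was taken when its GENCODE symbol is LINC followed by digits only, its gene type is lncRNA, and at least 20 reads were counted on it over both total RNA libraries. Members were therefore chosen by the same counts that are described below, so their levels are a description and carry no test. The total RNA was counted on 58051 genes, 2201 of them LINC genes, and 22 of these met the rule. The EVs were isolated with the exoEasy Maxi kit and size-exclusion columns from medium of PC3 cultures for which no treatment is named. The EV RNA was sequenced as 2 total RNA libraries and 2 small RNA libraries. All libraries analysed here are of this 1 condition, with no control line, parent cell RNA or medium blank beside them, so nothing below compares conditions. The titles of both total RNA libraries carry the tag EX1 while their count tables carry EX1 and EX2. The study's methods call the replicates biological, and the labels do not say what separates them.

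The LINC prefix is a systematic name for lncRNA genes that lie between protein-coding genes and lack a name drawn from a function or a neighbour. Such RNAs are made by RNA polymerase II, are mostly spliced, and are usually present at low levels with strong restriction to cell types. A few have been studied in tumour cells, where they bind proteins or miRNAs, but for most of them no function is established, and the name does not guarantee that no other gene shares their exons.

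The first stretch is shown because it lies in LINC02067 (ENSG00000240567), the LINC gene with the most reads, and is repeated elsewhere in the genome. Its exon 2 of 119 bases, at chr3:161429345-161429463 on the plus strand of GRCh38, is 100% identical to the antisense of the mRNA of RPL23A, a protein of the large ribosomal subunit. Both are printed 5′ to 3′, and capitals mark the 75 bases that precede a splice junction of RPL23A, with the 44 bases after it in lower case.
LINC02067 exon 2: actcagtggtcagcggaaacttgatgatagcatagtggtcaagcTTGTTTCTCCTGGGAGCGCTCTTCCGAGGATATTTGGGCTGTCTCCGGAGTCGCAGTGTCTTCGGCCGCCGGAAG
RPL23A mRNA: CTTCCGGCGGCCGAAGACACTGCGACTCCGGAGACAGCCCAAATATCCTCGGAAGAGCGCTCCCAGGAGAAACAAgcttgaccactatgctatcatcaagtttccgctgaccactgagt
The RPL23A stretch spans bases 156 to 274 of its canonical transcript of 970 bases, is coding throughout, and joins chr17:28720816-28720890 in exon 2 to chr17:28722723-28722766 in exon 3 on the plus strand. It is present without a mismatch in 7 of 9 annotated RPL23A transcripts.

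A further pair is shown because the genes differ in a single base over a long stretch, in the member with the least sequence of its own. Over 291 bases an exon of LINC01943 matches the opposite strand of MIR4435-2HG, with 1 differing base. The 60 bases around it are printed on the strand of LINC01943, with the differing base in capitals, from chr2:87455788-87455847 for LINC01943 and chr2:111494683-111494742 for MIR4435-2HG.
LINC01943: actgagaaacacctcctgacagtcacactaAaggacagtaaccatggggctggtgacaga
MIR4435-2HG: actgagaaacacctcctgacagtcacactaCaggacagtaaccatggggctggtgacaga

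LINC00513 is the only one of the 22 genes whose span holds miRNA hairpins of the RefSeq table, MIR29A and MIR29B1. Their main mature products, given as RefSeq lists them on GRCh38, share the seed in capitals, bases 2 to 8.
miR-29a-3p: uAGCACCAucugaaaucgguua
miR-29b-3p: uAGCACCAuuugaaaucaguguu

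The 2 libraries held 489170 and 475942 reads on genes, which were 2.50% and 2.16% of all reads in the tables. Reads that fit more than 1 place in the genome made up 45.5% and 48.1% and were set aside by the authors, and reads on no gene a further 36.3% and 35.4%. One read equals 2.04 CPM (reads scaled to 1000000 reads on genes) in replicate 1 and 2.10 CPM in replicate 2. A count of 0 allows up to 3 reads, which is 6.13 CPM or 0.000613% of gene reads in replicate 1 and 6.30 CPM or 0.000630% in replicate 2. Floors and intervals reflect the counting of reads alone, since copies made by PCR are not separate molecules. All 7 markers of PC3 and epithelial cells had at least 20 summed reads, with 1326 and 1411 reads in sum. Most of these were on KRT8, a keratin of simple epithelia, at 966 and 1088. EPCAM with 2 and 26 reads and ITGB4 with 26 and 1 lay almost wholly in 1 replicate. The luminal prostate genes KLK3, KLK2 and TMPRSS2, which PC3 cells lack or hold at low levels, were at 0, as were all 9 markers of red cells, white cells and liver or serum. Only 42.3% of 19629 protein-coding genes had a read in either replicate, so a count of 0 was common and is weak evidence.

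LINC genes were rarely counted in PC3 EVs, and those that were took a small share of the reads. Of the 2201 LINC genes, 90 had a read in either replicate (4.09%), against 16.3% of 11956 other lncRNA genes and 42.3% of 19629 protein-coding genes. Replicate 1 held reads on 38 LINC genes and replicate 2 on 66, and 14 were shared. Those 14 are 15.6% of the 90, while 50.9% of the other lncRNA genes and 51.9% of the protein-coding genes with a read had one in both replicates. These shares are not matched for read level, and low counts favour reads in 1 replicate only. At least 20 summed reads lay on 22 of the 90 LINC genes, 978 of 1946 other lncRNA genes and 3903 of 8296 protein-coding genes. All LINC genes together took 684 reads (0.140% of gene reads, 95% Wilson interval 0.130 to 0.151%) in replicate 1 and 918 (0.193%, 0.181 to 0.206%) in replicate 2, a mean of 0.166% ± 0.0375 (SD, n = 2). The intervals of the replicates did not overlap. Other lncRNA genes took 14.6% ± 0.596 (SD, n = 2).

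**Figure D1:**
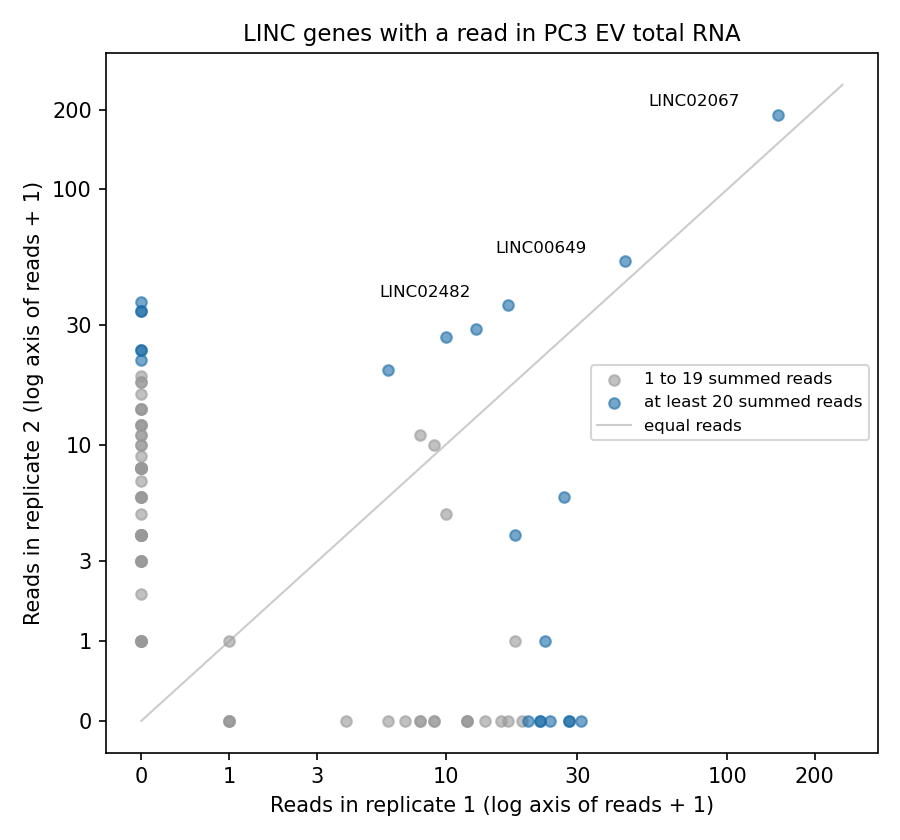
Reads of the 90 LINC genes with a read, replicate 1 on the x axis and replicate 2 on the y axis, both on a log axis of reads + 1, with the 22 genes of at least 20 summed reads in blue, the 68 others in grey and the line of equal reads. Most points lie on an axis, with all their reads in 1 replicate, and LINC02067 and LINC00649 lie near the line at the top right.

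The 22 genes took 482 reads in replicate 1 (0.0985%, 95% Wilson interval 0.0901 to 0.108%) and 543 in replicate 2 (0.114%, 0.105 to 0.124%), a mean of 0.106% ± 0.0110 (SD, n = 2) of gene reads. They are spread over 14 chromosomes, with 6 on chromosome 1. Their reads were 70.5% and 59.2% of all LINC reads, and the 68 LINC genes with 1 to 19 reads took the other 202 and 375. LINC02067 alone accounted for 30.9% and 35.4% of the members' reads, and without it 333 and 351 reads were left for 21 genes. The median member had 28 summed reads and a mean of 28.6 CPM. At the edge of the rule, LINC01635 had 20 and 0 reads just inside, and the genes at 19 just outside were LINC00987 with 9 and 10, LINC02951 with 8 and 11, LINC01588 with 18 and 1, LINC02970 with 19 and 0, and LINC00910 with 0 and 19. At 18 reads, LINC01465 and LINC02908 each had all of them in replicate 2. Just outside, LINC00987 and LINC02951 were thus more evenly counted than most genes inside.

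**Figure D2:**
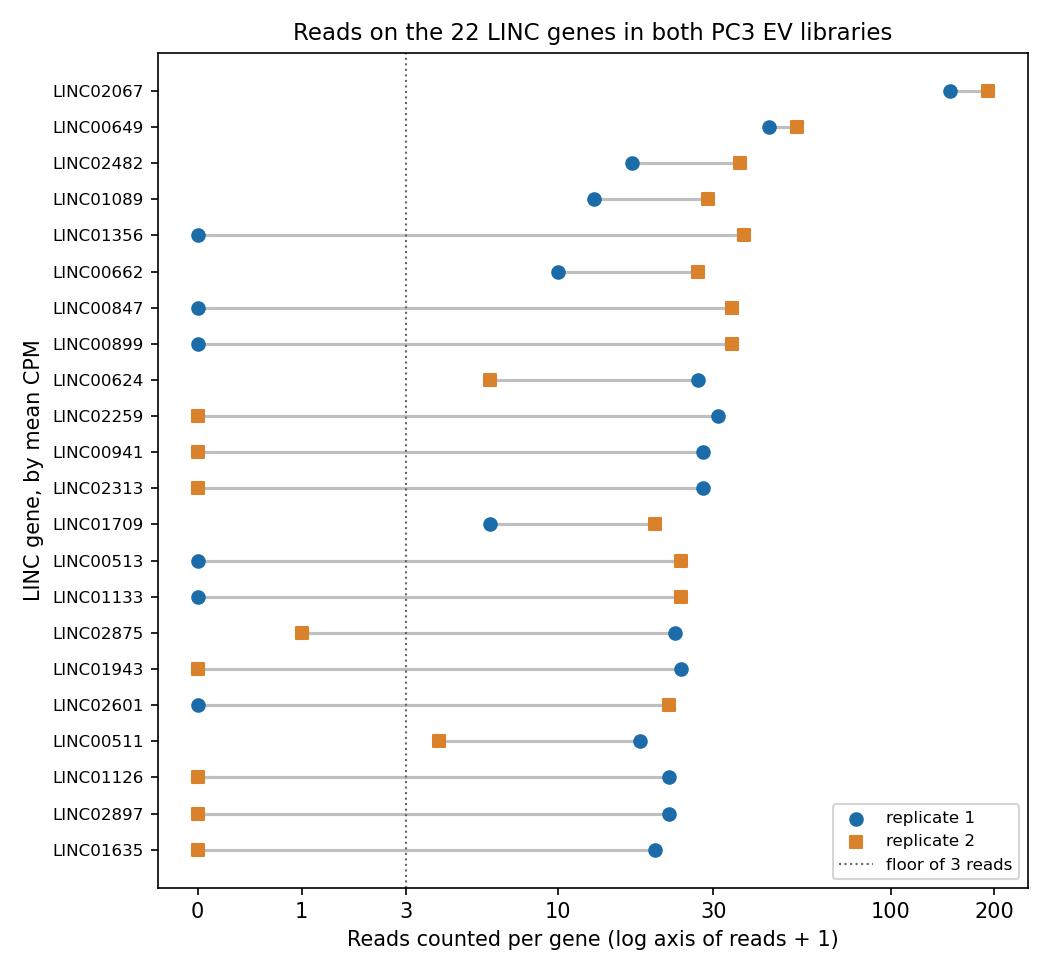
Reads per gene in replicate 1 (blue circles) and replicate 2 (orange squares) on a log axis of reads + 1, genes ordered by mean CPM, with a dotted line at the floor of 3 reads. A point lies at 0 for 13 of the 22 genes, and only LINC02067 lies above 100 reads in both libraries.

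Most members were counted in 1 replicate only, and their share was above that of genes with as many reads. All reads of a gene lay in 1 replicate for 13 of the 22 members (59.1%), 7 in replicate 1 and 6 in replicate 2, while this held for 16.3% of the 5134 genes with at least 20 summed reads. Low counts favour such a split, so the same share was taken over genes with 20 to 42 summed reads, where 13 of 19 members (68.4%) were in 1 replicate only. It was 30.1% of all 2520 genes in that range, 34.0% of 382 other lncRNA genes and 28.4% of 2015 protein-coding genes. As a second measure, the share of a gene's reads that lay in replicate 1 was set, with its 95% exact binomial interval, against the share of all gene reads in replicate 1, 50.7%. The interval left out that value for 21 of 22 members (95.5%), against 62.7% of all genes with at least 20 reads. LINC00649 was the exception. A spread of this kind compares 2 libraries and no conditions. Across the members the Spearman correlation of CPM between the replicates was -0.33 (22 genes), and since a gene with few reads in 1 library enters only with many in the other, choosing on the sum itself pulls this value down.

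**Figure D3:**
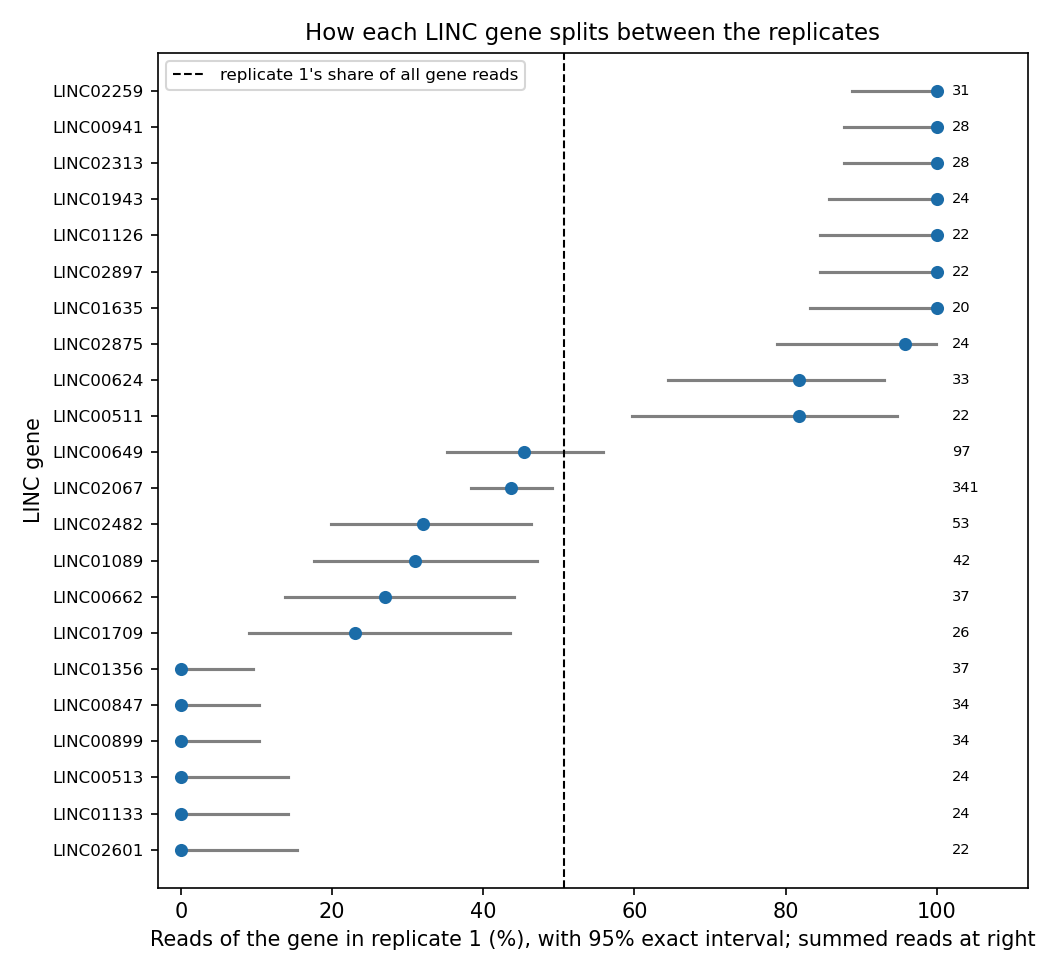
Percent of each gene's reads that lay in replicate 1 (points) with 95% exact intervals (bars), the summed reads at the right and a dashed line at the 50.7% of all gene reads. At 100% sit 7 genes, at 0% sit 6, and only the interval of LINC00649 crosses the line.

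Part of LINC02067, its exon 2 of 119 bases, has near-identical sequence elsewhere in the genome. Over all its exons 97.4% of 50-base windows occur once, and reads that fit more than 1 place are not in its count. The gene has 4 exons of 2845 bases in all on chromosome 3 (161426427 to 161448242, plus strand), no protein-coding gene within 10 kb, and no function known for its product. It had 149 reads in replicate 1 and 192 in replicate 2, or 305 and 403 CPM, a mean of 354 CPM ± 69.9 (SD, n = 2). Both libraries were high, and no other member came near, the next having 97 summed reads against its 341. Exon 2, printed above, holds 0 windows of 50 bases that occur once in the genome out of 70, whereas all 1182, 47 and 1350 windows of exons 1, 3 and 4 do. It lies opposite 119 bases of RPL23AP42, a processed pseudogene, that is a copy of the spliced mRNA put back into the genome, which had 12 and 7 reads.

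Among the genes elsewhere that hold the exon 2 sequence over its 119 bases, the pseudogene ENSG00000267135 (100% identity) had 3 and 7 reads, RPL23AP2 (100%) had 0 and 1, and RPL23AP74 (98.3%) and RPL23AP18 (96.6%) had 0 in both replicates. Other genes at these loci match RPL23A in other bases or face it. ENSG00000269888, a lncRNA gene of 248 exon bases inside LINC02067 on the same strand, had 255 and 207 reads, and its exon 1 of 98 bases is the exact antisense of bases 410 to 507 of the RPL23A mRNA. ENSG00000264577, a lncRNA gene on the minus strand of chromosome 17 with 155 exon bases opposite RPL23A exons, had 1468 and 1587 reads. RPL23A itself had 98 and 131. Per kilobase of exon, summed reads were 3400 for ENSG00000264577, 1860 for ENSG00000269888, 120 for LINC02067, 103 for RPL23A and 40.3 for RPL23AP42. The kit kept the strand of the RNA, but the strand setting used in counting is not given in the sources used here, and the tables hold no reads per exon. Whether the reads on LINC02067 came from its own exons or from RPL23A sequence was not tested.

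**Figure D4:**
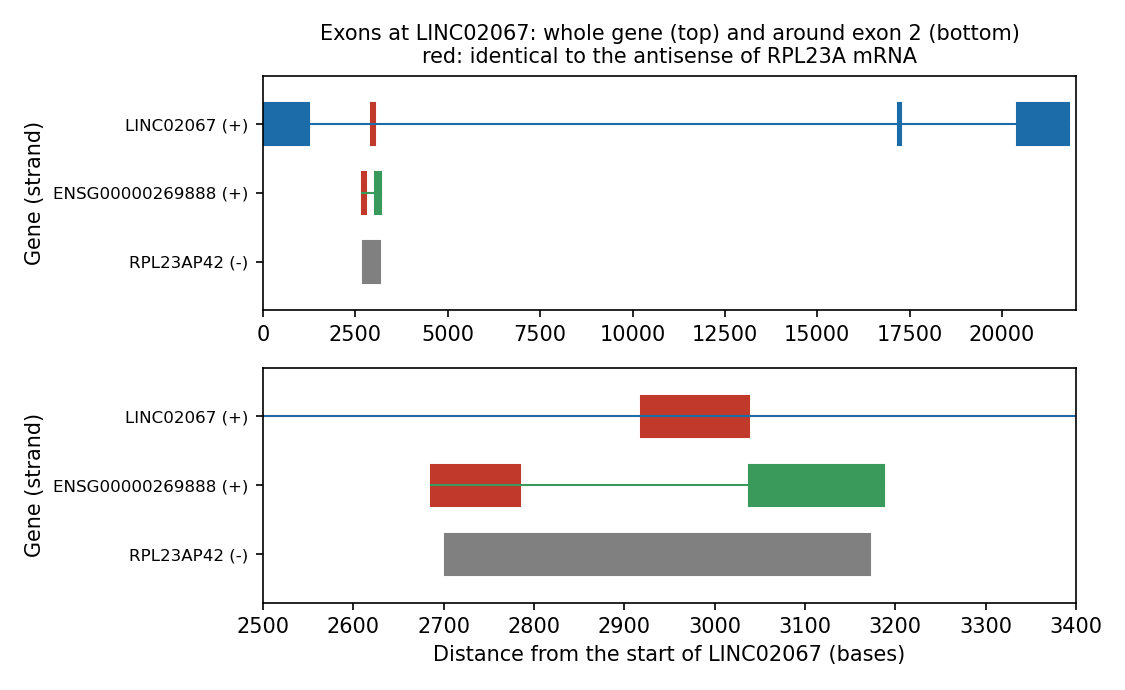
Exons of LINC02067, ENSG00000269888 and the pseudogene RPL23AP42 by distance in bases from the start of LINC02067, the whole gene in the upper panel and the part around exon 2 in the lower panel. Red boxes, exon 2 of LINC02067 (119 bases) and exon 1 of ENSG00000269888 (98 bases), are identical to the antisense of RPL23A mRNA, and both lie over or beside RPL23AP42.

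Besides LINC02067, 8 members had reads in both replicates, and 5 of these held more in replicate 2. LINC00649 (chromosome 21, 33915534 to 33977703, plus strand) had 44 and 53 reads, 101 CPM ± 15.1 (SD, n = 2), and was the member with the most equal counts. Its 19 exons lie opposite 246 bases of ATP5PO, a subunit of the mitochondrial ATP synthase, which had no read in either replicate, and opposite 243 bases of the coding gene ENSG00000249209, which had 5 and 0. Parts of its exons also match transcripts of 101 genes elsewhere at 95% identity or more over 100 bases or more, among them 448 bases of CHRM3, a muscarinic acetylcholine receptor, with 41 and 4 reads.

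LINC02482 (chromosome 4, 6648695 to 6673965, minus strand) had 17 and 36 reads, and LINC01089 (chromosome 12, 121795267 to 121803906, minus strand) had 13 and 29. Both were thus higher in replicate 2, with 32.1% (95% exact interval 19.9 to 46.3%) and 31.0% (17.6 to 47.1%) of their reads in replicate 1. LINC02482 shares 282 bases with the coding gene ENSG00000170846 on the other strand, which had 2 and 14 reads. LINC01089, described elsewhere as a lncRNA that is repressed by epidermal growth factor and restrains invasion of mammary cells, shares 1724 exon bases on its own strand with RHOF, a small GTPase that forms filopodia. RHOF had 89 and 53 reads, so it was higher in replicate 1 while LINC01089 was higher in replicate 2. On the other strand 2393 bases of LINC01089 face the lncRNA gene ENSG00000274292, which had 14 and 37 reads, close to the counts of LINC01089 in each replicate. Reads in shared bases of 2 genes are ambiguous or, without strand, cannot be told apart.

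LINC00662 (chromosome 19, 27681072 to 27794005, minus strand), studied as a growth-promoting lncRNA in several tumours, had 10 and 27 reads, a mean of 38.6 CPM ± 25.7 (SD, n = 2). With 80 annotated transcripts and 33198 exon bases it has the longest exon sequence of the members. LINC01709 on chromosome 1 had 6 and 20 reads, and its last 2 exons lie opposite 221 bases of RPSAP19, a pseudogene of the ribosomal protein gene RPSA, with 0 reads in both. The last exon also matches 191 bases of RPSA on the opposite strand at 97.4% identity, and RPSA had 0 and 4 reads. The RPL23A pattern of LINC02067, an exon antisense to a ribosomal protein mRNA over its pseudogene, was thus present a second time. Reads that fit more than 1 place are not in the count of RPSA. Where the reads on LINC01709 came from was not tested.

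The 3 other members in both replicates were higher in replicate 1. LINC00624 (chromosome 1, 147258885 to 147517875, minus strand) had 27 and 6 reads and lies opposite 210 exon bases of CHD1L, a chromatin remodeller, which had 0 and 17. The pair was therefore high in different replicates. LINC00511 (chromosome 17, 72290091 to 72640472, minus strand), a lncRNA studied as growth-promoting in breast and other tumours, had 18 and 4 reads. LINC02875, a gene of 1 exon of 1530 bases on chromosome 17, had 23 and 1 reads. It starts 2285 bases beyond the end of TBX2, a T-box transcription factor gene on the same strand, and TBX2 had 22 and 2 reads, nearly the counts of LINC02875 in each library. LINC02482 and its nearest coding gene, given above, were also both higher in replicate 2. Some other nearest coding genes were higher in the replicate where their member was lower. ARIH1 beside LINC02259 had 6 and 58 reads, and ZFP62 beside LINC00847 had 8 and 0. CAPRIN2 at LINC00941 had 0 and 12, and SLC39A11 beside LINC00511 had 0 and 10. This did not hold for NUBPL beside LINC02313, with 1 and 0 reads, or ZFP36L2 beside LINC01126, with 36 and 33.

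In replicate 2 only, 6 members were counted, with 22 to 37 reads there and 0 in replicate 1. They were LINC01356 with 37 reads, LINC00899 and LINC00847 with 34 each, LINC00513 and LINC01133 with 24 each, and LINC02601 with 22. These counts span 46.2 to 77.7 CPM, and a count of 0 in replicate 1 allows up to 6.13 CPM. The rule of at least 20 summed reads fixes this order beforehand, so it is no sign of a difference. LINC01133 (chromosome 1, 159958035 to 159984750, plus strand) is known to bind the splicing factor SRSF6 in colorectal cancer cells. LINC00513 (chromosome 7, 130853720 to 130930682, plus strand) has been tied to type I interferon signalling in lupus. Of LINC00847, 1227 exon bases lie opposite HEIH, a lncRNA first described in liver cancer, which had 0 reads in both. LINC01356 faces 607 bases of LINC01357, with 0 and 2 reads, and only 80.1% of its 50-base windows occur once in the genome. LINC02601 is the member on the X chromosome, 39160 bases from USP9X, a deubiquitinase with 31 and 18 reads.

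In replicate 1 only, 7 members were counted, with 20 to 31 reads there. LINC02259 had 31, LINC00941 and LINC02313 had 28 each, LINC01943 had 24, LINC01126 and LINC02897 had 22 each and LINC01635 had 20. Replicate 2 held none, which allows up to 6.30 CPM, and the counts in replicate 1 span 40.9 to 63.4 CPM. Here too the rule fixes this order beforehand. LINC00941 (chromosome 12, 30755167 to 30802602, plus strand) has been studied for its part in metastasis of gastrointestinal tumours. On its own strand it shares 1250 of its 1355 exon bases with the lncRNA gene ENSG00000285517, which was not analysed here. It also shares 105 with ENSG00000246331, which had 0 reads in both replicates. LINC01126 is a gene of 1 exon of 1646 bases that starts 604 bases from ZFP36L2, an RNA-binding protein of mRNA decay on the other strand. ZFP36L2 had 36 and 33 reads, so it was counted in both replicates where LINC01126 was not. LINC01635 (chromosome 1, 22023990 to 22026048, minus strand) faces 649 exon bases of LINC00339, and the pair had 20 and 17 reads in replicate 1 and 0 and 0 in replicate 2. LINC01635 also faces 231 bases of the coding gene ENSG00000289694, which was not analysed here.

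LINC01943 (chromosome 2, 87439523 to 87459044, minus strand) and LINC02259 (chromosome 15, 72608481 to 72636962, minus strand) were the members with the least sequence of their own. Only 31.3% and 53.7% of their 50-base windows occur once in the genome. LINC01943 lies opposite 405 exon bases of CYTOR, a cytoskeleton-regulating lncRNA, which had 0 reads in both replicates, and its match printed above, MIR4435-2HG, had 0 and 6. The 24 reads of LINC01943 were all in replicate 1, and CYTOR and MIR4435-2HG had none there. A longer match of 371 bases, at 98.9% identity on the same strand, was to SOCAR, which had 0 reads in both replicates. LINC02259 shares 158 bases at 100% identity with ISLR2, which had 0 reads.

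Compared per length, LINC02067 was the highest of the members with 124 CPM per kilobase of exon ± 24.6 (SD, n = 2). It was followed by LINC02313 with 52.0, LINC02259 with 49.7, LINC02601 with 27.7 and LINC00941 with 21.1 CPM per kilobase, all 4 of them genes of 550 to 1355 exon bases with reads in 1 replicate only. Their SDs, from 29.9 to 73.6 CPM per kilobase, exceed their means, which 1 of 2 values at 0 fixes beforehand. Since each gene was counted in 1 replicate only, their order among themselves was not set by these libraries. In replicate 1 alone LINC02313 and LINC02259 came close to LINC02067, while in replicate 2 they were at 0. At the lower end were LINC00662 with 1.16 ± 0.773 and LINC00511 with 0.817 ± 0.726 CPM per kilobase (SD, n = 2), and both have the longest exon sequence. The median over the 22 genes was 11.4 CPM per kilobase.

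**Figure D5:**
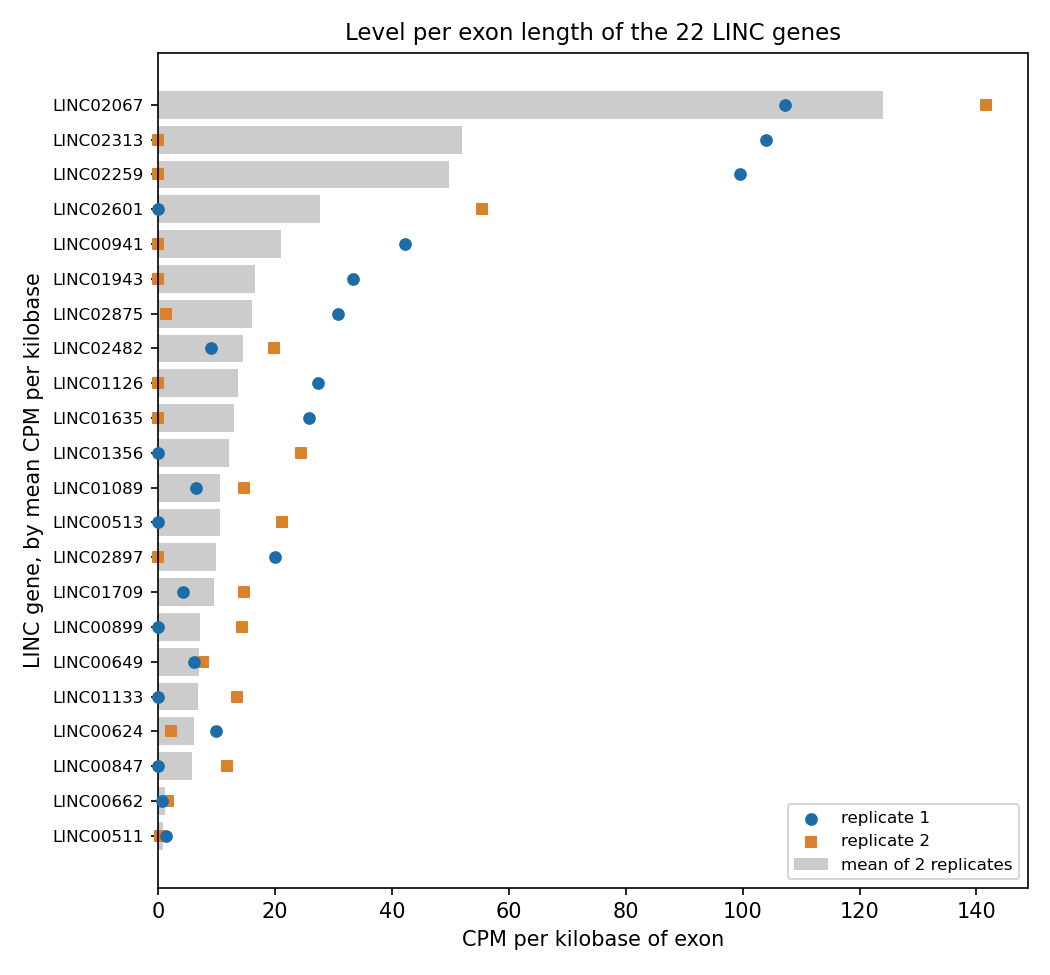
CPM per kilobase of exon for each of the 22 genes, as the mean of 2 replicates (grey bars) and in replicate 1 (blue circles) and replicate 2 (orange squares). LINC02067 leads at a mean of 124, and in most other genes 1 replicate is at 0.

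Named lncRNAs outside the LINC series give a scale for these values. NEAT1, which builds nuclear paraspeckles, had 283 and 243 reads, or 23.9 CPM per kilobase of exon. MALAT1, a nuclear speckle lncRNA, had 265 and 186 reads (44.7 CPM per kilobase), and NORAD, which binds PUMILIO proteins in the cytoplasm, had 63 and 39 (19.5 CPM per kilobase). All 3 had reads in both replicates, and each held more in replicate 1. GAS5, a host of small nucleolar RNAs, had 10 and 14 reads. SCHLAP1, a lncRNA of aggressive PCa, had 6 and 3, and MEG3 had 0 and 5. CYTOR, TUG1, H19 and PCA3, the last a urine marker of PCa, were at 0 in both.

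Of 20 LINC genes studied in cancer cells 5 had a read in these EVs, beside 90 of all 2201 LINC genes. Of the 5, 3 were members (LINC00662, LINC00511 and LINC01133), LINC01116 had 16 and 0 reads and LINC00339 had 17 and 0. A further 12 were at 0 in both replicates, among them LINC00665, LINC00467 and LINC00963, and 3 were not analysed here. At this depth 0 reads bounds a level from above and does not show that an RNA was absent from the vesicles.

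By annotation, which the rule did not use, the members are set beside the other LINC genes without a test. Exons of 4 of 22 (18.2%) lie opposite exons of a protein-coding gene, namely LINC00649, LINC02482, LINC00624 and LINC01635. The share was 4.41% of the 68 LINC genes with 1 to 19 reads and 1.42% of the 2111 with none. Exons of any other gene lay opposite those of 14 members (63.6%), against 45.6% and 18.9%. A protein-coding gene lay within 10 kb of 13 members (59.1%), 47.1% and 21.9%. In these features the genes with 1 to 19 reads stood between the members and the genes without reads, and since longer genes with more transcripts collect more overlaps, median exon length is given beside them, 2853, 2486 and 1943 bases. Genes of 1 exon made up 18.2% of the members and 19.1% of the genes with 1 to 19 reads, against 3.32% of those without reads. The share of genes with under 90% of windows occurring once was 18.2%, 16.2% and 10.1%.

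A listed gene lay opposite the exons of 14 members, and 7 of these had a read on it. The member held more reads than any such gene in 13 cases, LINC01089 being the exception, but choosing members for their counts favours this direction. Matches of at least 100 bases at 95% identity to a gene elsewhere were found for 10 of the 22 members. The other 12 had none, among them LINC01089, LINC00847, LINC00899, LINC00513 and LINC01133. Among those with matches, LINC00662 matched 5 genes, of which PCBP1-AS1 had the most reads (357 and 332). LINC00511 matched ENTPD4 with 10 and 0 reads and EIF3I with 34 and 10, and LINC02897 matched 32 genes. What part overlap and shared sequence had in the members' counts was not tested.

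The small RNA libraries gave a separate readout at LINC00513. MIR29A and MIR29B1 lie within its span on the other strand and in none of its exons. miR-29a-3p, which represses collagen and other matrix mRNAs, had 165 reads in the first small RNA library and 54 in the second, or 1070 and 477 CPM of 154185 and 113185 miRNA reads. miR-29b-3p, with the same seed, had 1 read in each, and the other arms of both hairpins had 0. The columns of this table carry no replicate number, so these counts cannot be matched to the 0 and 24 reads of LINC00513 in replicates 1 and 2 of total RNA.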

How the data were processed

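EVs of PC3 cells were isolated from medium with exosome-free serum, and total RNA was made into stranded total RNA and small RNA libraries. Reads were mapped to GRCh38 by the authors, who deposited HTSeq counts per Ensembl gene and counts per mature miRNA, neither of them normalised. Tool versions, annotation release and strand setting are not given in the sources used here.

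Of 58051 gene identifiers 56948 matched GENCODE release 44, which gave symbols, types and exons. Reads set aside by HTSeq (not unique, no feature and the like), over 97% of each library, stayed out of totals. CPM used the sum of gene counts, 489170 and 475942. Exon lengths are the union of all transcripts. Each 50-base window of exon was looked up in GRCh38 on both strands, and exons were matched to GENCODE transcripts with blastn 2.17.0. Intervals are Wilson for shares of a library and exact binomial for replicate shares. The interval rule was tested on simulated counts with binomial spread alone, so that test does not cover further spread between the libraries. TMM factors, used as an alternative, came from edgeR 4.0.16 in R 4.3.3. Python 3.11.15 with pandas 2.3.3, numpy 2.4.6, scipy 1.17.1, numba 0.67.0, pysam 0.24.0 and matplotlib 3.10.9 did the rest.

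With 1 condition and 2 replicates no test between groups was made. The members, lists and rules were chosen with earlier results of these data known. Named were the 20 members with the highest mean CPM, the 5 highest per kilobase, those opposite coding exons by at least 100 bases, those at the edge of the rule, those with miRNA hairpins or in a list of 20 studied LINC genes, and 10 comparator lncRNAs. No member with at least 50 reads had over 9 in 10 of them in 1 replicate. Partner genes of members were named after their values were seen. Alternatives were other minimums, totals, lengths and overlaps, and leaving out each replicate. The values of 2 marker genes are not reported here.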

Additional observations from a re-analysis of the deposited data

Results flagged for a closer look

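The small RNA libraries lie outside the total RNA counts that chose the genes, and they held a signal at the locus of 1 of them. miR-29a-3p, whose hairpin lies on the other strand within LINC00513, had 165 reads in the first small RNA library and 54 in the second, above the 3 reads that a count of 0 allows. Groups of 2 samples are too small to ask whether 1 of them stands apart.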

How the results depend on the processing

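No paired analysis was possible because there is 1 condition for each kind of RNA, and the small RNA columns carry no replicate number. The number of members was 47 at a minimum of 10 summed reads, 3 at 50, 1 at 100 and 7 with at least 5 reads in each replicate. Without each replicate in turn, at 10 reads in the other, it was 24 to 28. The share of gene reads on the members was 0.165% when miscellaneous RNA and mitochondrial genes were left out of the total and 0.0709% without LINC02067, an alternative chosen after seeing the data, and 0.0985 to 0.114% without each replicate. The share of members that differed between the replicates was 95.5% as in the report with TMM factors, 86.4% with a 99% interval, 66.7% of 3 members at 50 reads and, chosen after seeing the data, 68.2% with every count divided by 2. The share over all genes, 62.7%, is given at the main setting only. The members' shares at the other settings therefore cannot be set against all genes. The correlation across members was -0.40 as Pearson's r, and the planned pseudocount of 5 is no check of the Spearman value, since it leaves the ranks as they are. Of the 10 highest members per kilobase, 3 were also among the 10 highest by CPM without length, 8 by the longest transcript, 3 without replicate 1 and 8 without replicate 2. The share of members opposite coding exons was 18.2% at 100 bases, 63.6% for exons of any gene and 66.7% at 50 reads, where 3 members were left. The share of repeat-masked exon bases was not run, since the genome used does not mark repeats. All reads of 13 of the 22 members lay in 1 library, and at this depth levels under 3 reads cannot be shown.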

Other observations

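Counts on single genes were more often even than odd. Of 16806 gene counts above 0 in both total RNA libraries together, 65.9% were even, 67.3% in replicate 1 and 64.8% in replicate 2. Among protein-coding genes it was 69.3% of 12601 counts and among other lncRNA genes 53.6% of 2937. LINC genes had 64 even counts of 104 (61.5%), and the members 20 of 31 (64.5%). Nonzero counts also came in lumps, with a median of 12.5 reads on a LINC gene with any read in replicate 1 and 8 in replicate 2, against 15 and 12 over all genes. The files do not show whether reads were counted in pairs or amplified copies, and this was not tested. Where each count stands for fewer molecules than reads, the exact intervals of the replicate shares are too narrow.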
